A study of Homo sapiens with 32 samples.

Results

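The m6A peaks of 8 long noncoding RNA (lncRNA) genes known for roles in the nucleus or for binding regulatory proteins were examined in A375 cells, an established human melanoma line. The genes were MALAT1, NEAT1, TUG1, KCNQ1OT1, NORAD, OIP5-AS1, MIR100HG and CYTOR, 8 of the 14099 RefSeq genes that held a peak in any list. A peak was assigned to a gene when its summit lay in the RefSeq span on the strand that held most of the gene's summits. This gave 248 of the 180114 peaks in 4 lists. N6-methyladenosine (m6A) had been enriched with an antibody from ribosome-depleted RNA of the chromatin-associated fraction and sequenced (MeRIP-seq). The 2 control libraries came from cells labelled wild type with a control hairpin RNA (shControl), and the 2 knockdown libraries from cells labelled METTL3 knockdown (shMETTL3). They belong to a series of 32 samples in 16 groups, of which the others are not analysed here. The labels name no clone, time point or separate culture, so replicates may differ by technical spread alone.

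m6A is written on nascent RNA mainly by a nuclear complex whose catalytic subunit is METTL3, and it is bound by reader proteins or removed by demethylases. Long noncoding RNAs act without being translated, as scaffolds of nuclear bodies, as regulators of genes in cis, or as decoys for proteins and microRNAs. MALAT1 and NEAT1 are known for nuclear speckles and paraspeckles, and KCNQ1OT1 for imprinted silencing. NORAD, OIP5-AS1 and CYTOR are also known from the cytoplasm, and peak lists of the chromatin fraction do not show where in the cell an RNA resides. RefSeq lists TUG1 as protein-coding and the other 7 genes as lncRNA.

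Annotated start sites were where sequence could be set beside peaks, so the start windows reached by a peak in all 4 lists are shown. Each window holds 250 bases before and 50 after a RefSeq start (GRCh38.p14, the build of the lists), read along the transcript. Capitals mark the bases that lay inside the peaks of all 4 lists. The MALAT1 window, chr11:65498795-65499094 on the plus strand, surrounds the internal start at 65499045. The NORAD window, chr20:36050911-36051210 on the minus strand, surrounds the start at 36050960.

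MALAT1 internal start window: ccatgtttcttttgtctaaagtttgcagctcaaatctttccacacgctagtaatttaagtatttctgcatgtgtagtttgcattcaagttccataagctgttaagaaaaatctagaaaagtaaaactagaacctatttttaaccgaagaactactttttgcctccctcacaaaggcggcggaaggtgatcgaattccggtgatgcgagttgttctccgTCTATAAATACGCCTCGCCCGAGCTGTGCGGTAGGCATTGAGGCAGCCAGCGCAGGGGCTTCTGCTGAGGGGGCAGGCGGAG

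NORAD start window: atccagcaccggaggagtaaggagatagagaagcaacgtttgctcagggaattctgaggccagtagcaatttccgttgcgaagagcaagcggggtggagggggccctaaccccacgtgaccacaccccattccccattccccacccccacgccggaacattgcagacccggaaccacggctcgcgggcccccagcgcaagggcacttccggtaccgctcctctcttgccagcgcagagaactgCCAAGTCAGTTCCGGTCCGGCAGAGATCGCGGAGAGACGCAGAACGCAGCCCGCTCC

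Peaks reached both starts in every list. At MALAT1 they began 42, 32, 41 and 32 bases upstream of the internal start in control replicates 1 and 2 and knockdown replicates 1 and 2. At NORAD they began 8, 7, 10 and 8 bases upstream of the start in the same order. The letters GGAC followed by any base other than G, which belong to the preferred m6A sequence context, were searched on the transcript strand. Of the 12 start windows of the member genes, 7 held a match, and of all 35116 start windows 58.7% did. Neither window shown here held one. This says only that these letters are not in these 300 bases.

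MIR100HG is a host transcript of microRNAs, and the mature 5p arms of its best known hairpins are shown because no peak lay on any of them. Capitals mark the seed, bases 2 to 8, and the 3 seeds differ.

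hsa-miR-125b-5p: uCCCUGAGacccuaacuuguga

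hsa-let-7a-5p: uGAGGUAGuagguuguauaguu

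hsa-miR-100-5p: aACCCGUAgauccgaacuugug

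The MIR125B1 hairpin (chromosome 11, 122099757 to 122099844, minus strand) was 1265, 1193, 1274 and 880 bases from the nearest MIR100HG peak in control replicates 1 and 2 and knockdown replicates 1 and 2. The MIRLET7A2 hairpin (122146522 to 122146593) was 13959, 13902, 13885 and 18300 bases away. For the MIR100 hairpin (122152229 to 122152308) the distances were 8277, 19609, 8170 and 13410 bases. In both groups the peaks of the host thus lay outside these hairpins.

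Whole-list values set the frame. Peaks numbered 45345 and 47692 in control and 44108 and 42969 in knockdown. Read depth is unknown. Median fold enrichment, the peak caller's ratio of signal to background at the summit, was 3.65 to 3.93. METTL3, the knockdown target, had 5 peaks in each of the 4 lists, which does not measure its RNA. Peaks were found in 3 of 10 melanocyte and melanoma marker genes, among them MITF, and in 0 of 4 keratinocyte and 0 of 3 leukocyte marker genes. SOX10, PMEL and MLANA were among the markers without a peak. In these bulk lists a change of methylation and a change of RNA amount cannot be told apart, for any gene described here.

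The 8 genes together had 59 and 54 peaks in control replicates 1 and 2 and 69 and 66 peaks in knockdown replicates 1 and 2. Both knockdown lists were higher than either control list, with means of 67.5 ± 2.12 and 56.5 ± 3.54 (SD, n = 2 each). By an exact permutation test (two-sided) p was 0.333, and 2 against 2 lists can give no smaller value. Without CYTOR the mean difference was 2 peaks instead of 11, so most of it came from that gene. Summed peak width was 29.2 kb and 29.1 kb in control and 36.7 kb and 34.2 kb in knockdown (exact permutation p = 0.333).

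**Figure D1:**
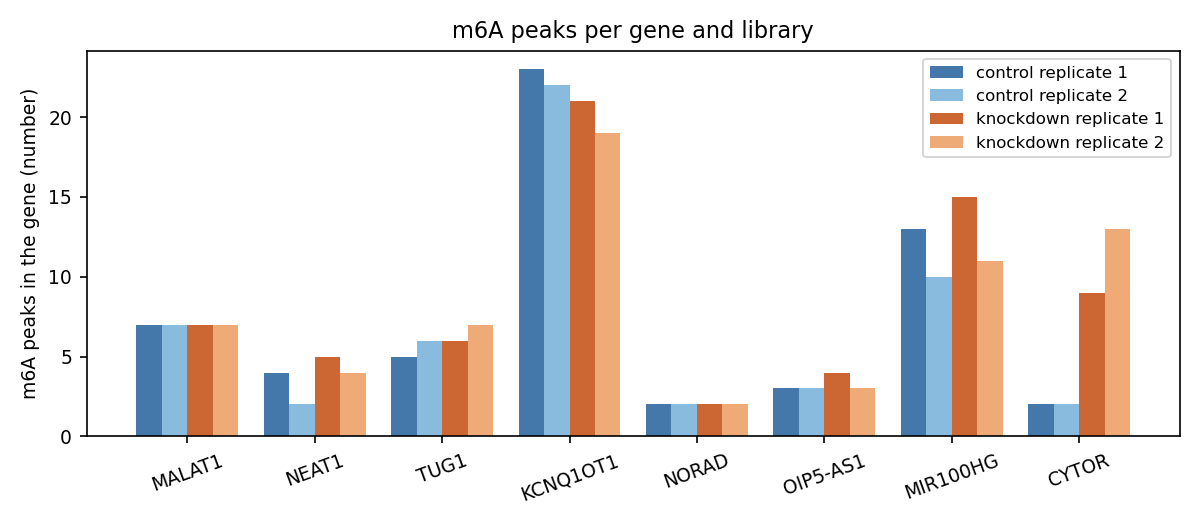
Number of m6A peaks (vertical axis) in each of the 8 genes, with 1 bar per library. CYTOR had 2 peaks in each control list and 9 and 13 in the knockdown lists, KCNQ1OT1 had 19 to 23 in every list, and MALAT1 had 7 in every list.

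Single genes differed widely in this respect. More peaks in both knockdown lists than in either control list were found in 1 of the 8 genes, CYTOR. Fewer were found in 1, KCNQ1OT1. Among all 14099 genes with a peak, 18.1% had more and 23.3% had fewer by the same rule, so the counts of 1 in 8 are not a result about these genes.

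To follow single sites, peaks of the 4 lists that shared at least 1 bp on a strand were merged to loci, which gave 89 loci in the 8 genes. Of these, 31 (34.8%) were in all 4 lists, against 35.7% of all 66409 loci. Control-only loci, which were present in each control list and absent from each knockdown list, were 11 of 46 (23.9%), against 22.6% in the whole lists. Knockdown-only loci were 15 of 53 (28.3%), against 18.9%. The first 2 shares were close to the whole lists. The third rested on CYTOR, which held 7 of the 15, and 8 were left without it. Loci of 1 gene share its RNA and are not replicates, so no test was made over them. Without knockdown replicate 1 the count of knockdown-only loci was 23, since a locus then needed only 1 knockdown list. When only peaks of fold 4 or more were kept, 5 loci were in all 4 lists, 1 was control-only and 10 were knockdown-only. No whole-list share was computed at this cut, so whether other genes show the same imbalance is not known.

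**Figure D2:**
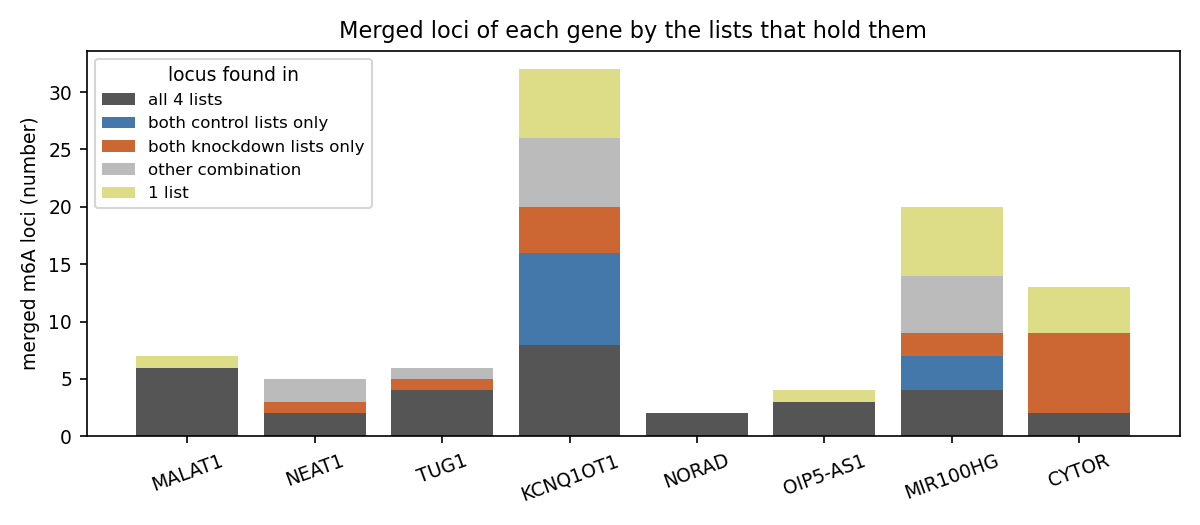
Number of merged m6A loci (vertical axis) in each gene, stacked by the lists that hold the locus. KCNQ1OT1 held 8 of the 11 control-only loci and MIR100HG the other 3, while CYTOR held 7 of the 15 knockdown-only loci.

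CYTOR, a lncRNA known from proliferation and the actin cytoskeleton, showed the widest difference in peak number. Its span on chromosome 2 (87455427 to 87521518, plus strand) held 2 peaks in each control list, while knockdown replicates 1 and 2 had 9 and 13. The groups did not overlap, and the covered length was 0.542 kb and 0.717 kb in control and 4.22 kb and 4.73 kb in knockdown. Its mean difference of 9 peaks ranked at percentile 99.7 of all genes with a peak. It was 4 peaks when only peaks of fold 4 or more were kept and 6 with a −log10 q of at least 20. Both control peaks lay within 3.45 kb of the gene start and were also in both knockdown lists.

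The 7 knockdown-only loci of CYTOR ran from 2.79 kb to 46.9 kb from the start. The locus at 87457590 to 87458492 was the strongest, at a fold of 6.11 in knockdown replicate 1 and 6.80 in knockdown replicate 2. Next was the locus at 87476282 to 87477031, with 5.65 and 4.65. The folds were 3.31 and 4.38 at 87477824 to 87478136, and 2.95 and 4.14 at 87502323 to 87502640. These 4 loci had folds near or above the list medians in at least 1 knockdown list. The other 3 were weaker, with 2.07 and 3.48 at 87475449 to 87475810, 1.78 and 3.17 at 87470970 to 87471653, and 1.75 and 1.82 at 87489781 to 87490106. A further 4 loci were in knockdown replicate 2 only, among them 1 at 87521138 to 87521457 beside the gene end.

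Other annotated genes share this stretch. The spans of LINC01943 (87439523 to 87459096) and LOC124906032 overlap that of CYTOR. LINC01943 held 2, 2, 3 and 3 plus-strand peaks in control replicates 1 and 2 and knockdown replicates 1 and 2, all counted in CYTOR. They include the strongest knockdown-only locus, at 87457590 to 87458492. Loci of CYTOR downstream of its start also lie in the span of NCAL1 (87455479 to 87737853), whose strand the gene table does not give. Outside CYTOR, the NCAL1 span had 3, 3, 2 and 4 plus-strand peaks in control replicates 1 and 2 and knockdown replicates 1 and 2, so the groups overlapped there. MIR4435-2HG, a lncRNA gene elsewhere on chromosome 2 that shares near-identical sequence with CYTOR, had 9 and 11 peaks in control and 27 and 29 in knockdown. Reads of such copies can be split or misplaced between them, and the assignment of peaks to either gene is uncertain for that reason.

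KCNQ1OT1 differed in where its peaks lay. This RNA is transcribed antisense from within KCNQ1 and silences imprinted neighbours in cis. Its span (chromosome 11, 2608328 to 2699994) held 23 and 22 peaks in control and 21 and 19 in knockdown, all on the minus strand. The lower number in knockdown was not stable, since the mean difference of -2.5 peaks became 2 with a fold of at least 4 and 0 with a −log10 q of at least 20 or with lists of equal length. Covered length was nearly equal, at 9.61 kb and 9.63 kb in control and 10.1 kb and 9.61 kb in knockdown.

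Peaks near the start were more extended in knockdown, and peaks farther along were more extended in control. The span was divided into 3 equal parts after this pattern had been seen. In the first part, up to 30.6 kb from the start, peaks covered 1.74 kb and 1.63 kb in control and 6.93 kb and 6.55 kb in knockdown. In the middle part, up to 61.1 kb, they covered 6.96 kb and 6.92 kb in control and 2.99 kb and 2.53 kb in knockdown. The last part had 0.919 kb and 1.08 kb in control and 0.151 kb and 0.525 kb in knockdown. In each part the groups did not overlap. The difference of -4.18 kb in the middle part was -1.94 kb when only peaks of fold 4 or more were kept.

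Of the covered length, the first part held 18.1% and 16.9% in control and 68.8% and 68.2% in knockdown. The same shares were computed in all 461 genes of at least 50 kb with at least 10 peaks in every list. KCNQ1OT1 had the largest difference of these toward knockdown, 51.0 percentage points, while 5% of the genes were below -12.0 and 5% above 17.8 points. The gene was chosen after its values had been seen, so this rank is a description.

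**Figure D3:**
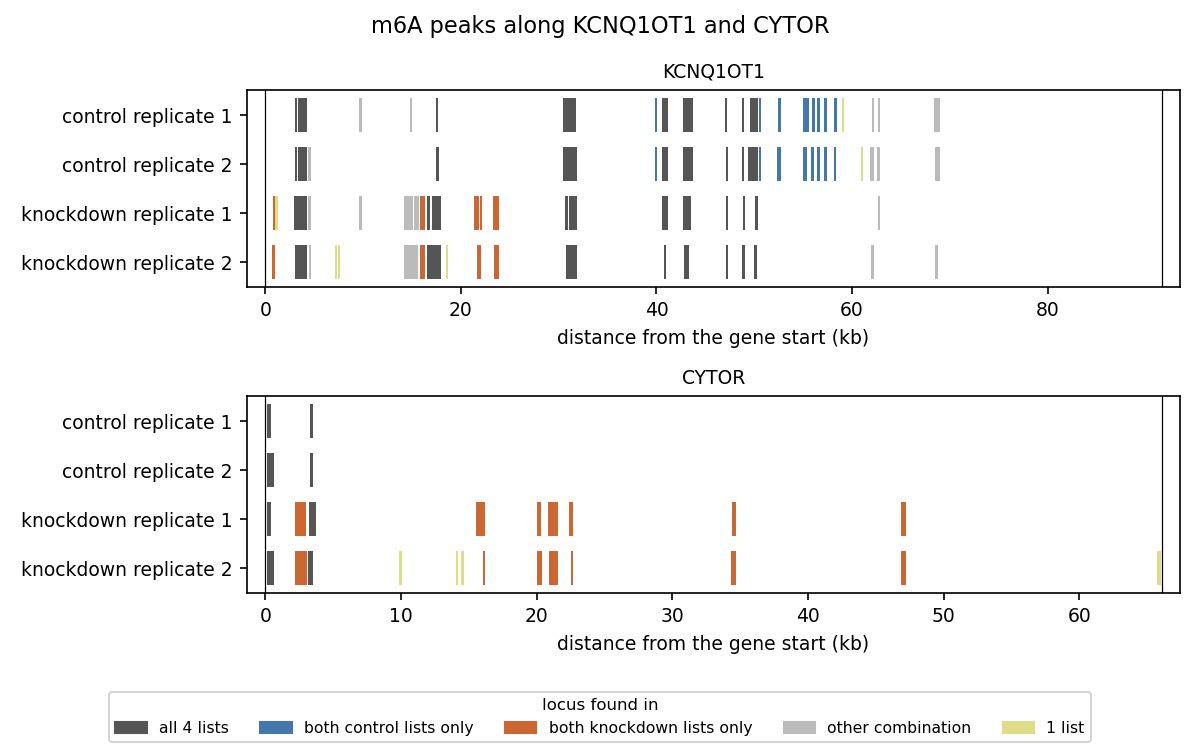
Peaks of KCNQ1OT1 and CYTOR in the 4 lists as bars along the distance from the gene start in kb (horizontal axis), with black lines at the gene start and end and colours for the lists that hold the locus. In KCNQ1OT1 the 8 control-only loci lie between 40.0 and 58.3 kb and the 4 knockdown-only loci between 0.810 and 23.5 kb, and in CYTOR the control lists have peaks only at the start.

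All 8 control-only loci of KCNQ1OT1 lay between 40.0 kb and 58.3 kb from the start. By mean fold percentile within its list the highest was at 2641581 to 2641852, where the fold was 4.21 in control replicate 1 and 4.98 in control replicate 2. Those at 2649295 to 2649518 (3.86 and 4.55), 2642521 to 2642874 (3.51 and 3.91) and 2659954 to 2660132 (4.11 and 3.26) came next. The locus at 2647262 to 2647623 had folds of 2.91 and 4.46. The others were at 2643742 to 2644165 (3.16 and 3.39), 2644352 to 2645005 (3.91 and 2.54) and 2643239 to 2643538 (2.91 and 2.83). Most were thus near or below the list medians.

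The 4 knockdown-only loci lay between 0.810 kb and 23.5 kb from the start. Folds in knockdown replicates 1 and 2 were 4.33 and 3.14 at 2676054 to 2676754, 3.53 and 3.75 at 2677780 to 2678603, 3.22 and 2.62 at 2699062 to 2699248, and 2.59 and 2.53 at 2683671 to 2684184. Of the 8 shared loci, 3 had a higher fold percentile in both knockdown lists, at 3.53, 17.6 and 31.1 kb from the start, the last of them just inside the middle part. A further 3 had a lower one, at 40.8, 42.9 and 50.3 kb, and the groups overlapped at 47.1 and 48.9 kb. Each of the 3 higher loci had 2 peaks in at least 1 list. At 17.6 kb from the start (2682007 to 2683475) the folds were 2.80 and 1.98 in control and 7.45 and 7.35 in knockdown. At 40.8 kb (2658805 to 2659452), the locus with the highest mean fold percentile of the gene, they were 8.32 and 8.71 in control and 5.55 and 4.73 in knockdown. Both loci kept the groups apart, in opposite directions.

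MALAT1, the abundant RNA of nuclear speckles, had the same number of peaks in every list. Its span (chromosome 11, 65497738 to 65506516, plus strand) held 7 peaks in each of the 4 lists and no control-only or knockdown-only locus. Peaks covered 67.7% and 58.4% of the span in control and 57.5% and 51.3% in knockdown. Among genes of 5 kb or longer with a peak the median was 1.92%. The widest peak ran from the internal start shown above and was 2123, 2098, 2121 and 2056 bp wide in control replicates 1 and 2 and knockdown replicates 1 and 2. With every list cut by −log10 q to as many peaks as the shortest list, the knockdown lists had on average 3.5 more MALAT1 peaks, and with a −log10 q of at least 20 they had 2 more.

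Those peaks were broad but of very low fold. MALAT1 folds were 1.39 to 1.53 in control replicate 1, 1.23 to 1.31 in control replicate 2, 1.39 to 1.61 in knockdown replicate 1 and 1.34 to 1.47 in knockdown replicate 2. In control replicate 2 all 7 were among the 10 lowest folds of 47692 peaks. Their −log10 q nevertheless reached 24.5, 9.76, 29.8 and 19.5. The locus with the highest mean fold percentile, at 65502539 to 65503211, had folds of 1.43 and 1.31 in control and 1.61 and 1.47 in knockdown.

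NEAT1, the scaffold of paraspeckles, resembled MALAT1 in fold. Its span (chromosome 11, 65422798 to 65445540, plus strand) held 4 and 2 peaks in control and 5 and 4 in knockdown, so the groups touched. Folds were 1.34 to 1.64, 1.40 to 1.41, 1.28 to 1.72 and 1.29 to 1.61 in the same order of lists as above. Peaks clustered at the gene start, where the short and the long NEAT1 isoforms overlap.

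A NEAT1 peak began 42, 43, 47 and 43 bases upstream of the annotated start, and its summit differed by 1 bp over the 4 lists. This locus (65422751 to 65423174) had folds of 1.64 and 1.41 in control and 1.72 and 1.61 in knockdown. The second shared locus (65423396 to 65424970) had 1.58 and 1.40, and 1.69 and 1.55. A knockdown-only locus at 65425189 to 65425449 had 1.42 and 1.42. The locus at 65428399 to 65428655 was missing from control replicate 2 (1.39 in control replicate 1, 1.45 and 1.29 in knockdown). The only locus far from the start, at 65444719 to 65444965 and 22.0 kb along, was in 1 control and 1 knockdown list (1.34 and 1.28).

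**Figure D4:**
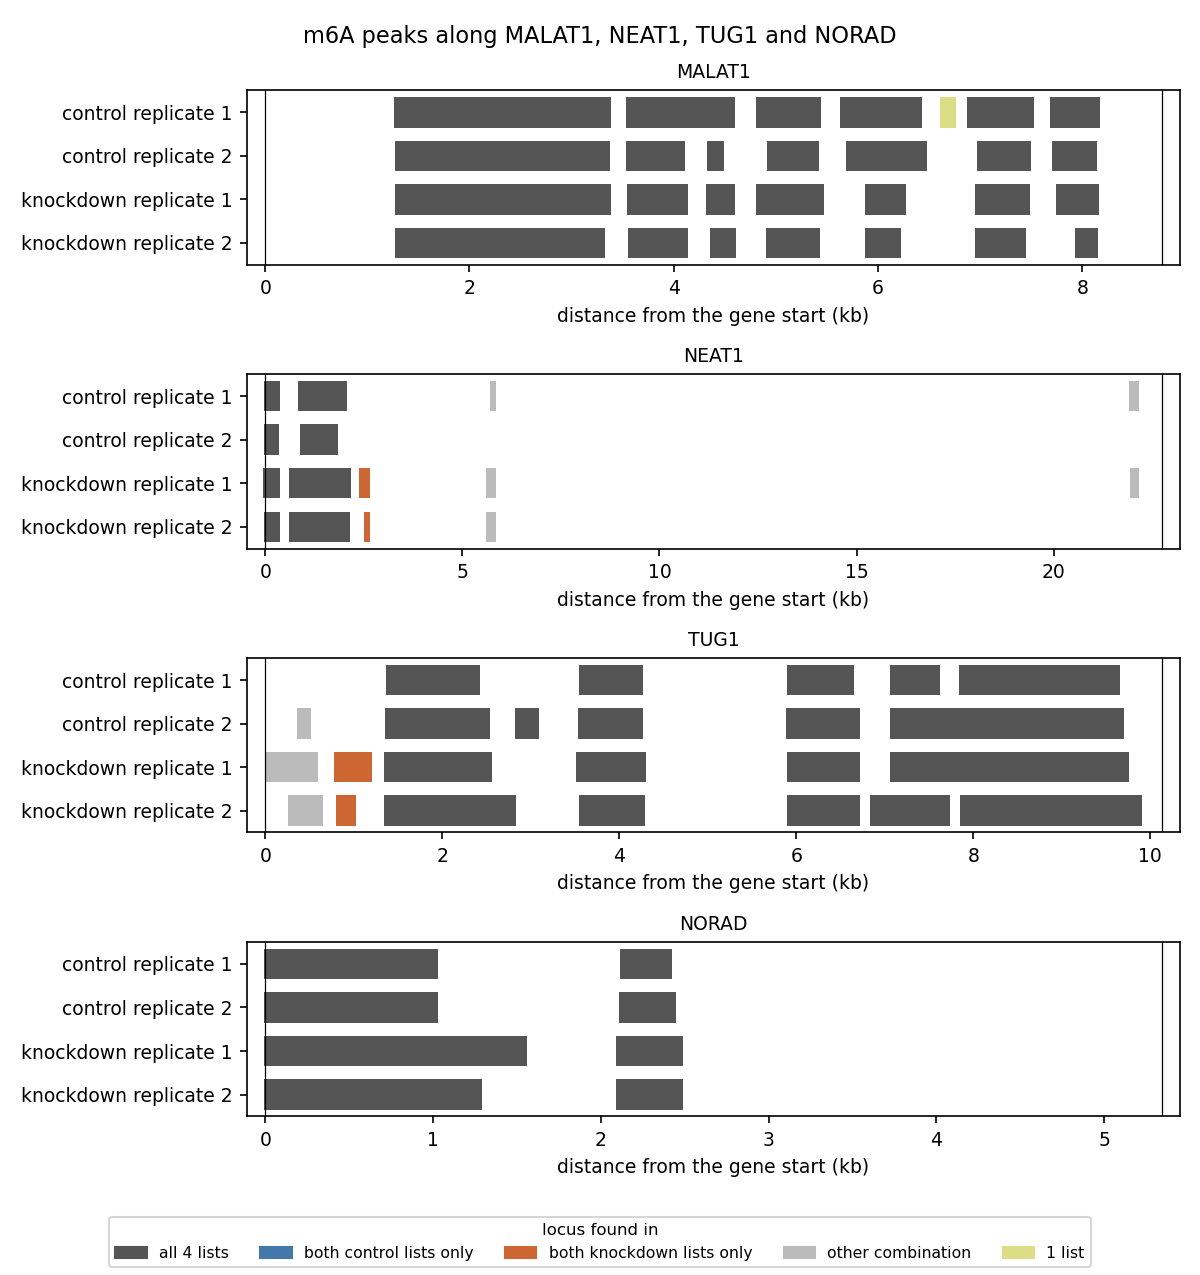
Peaks of MALAT1, NEAT1, TUG1 and NORAD in the 4 lists as bars along the distance from the gene start in kb (horizontal axis), with black lines at the gene start and end and colours for the lists that hold the locus. MALAT1 and TUG1 have peaks over much of their length, whereas NORAD peaks lie toward the start. NEAT1 peaks also lie toward the start, apart from 1 locus at 22.0 kb near the gene end.

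TUG1, known for binding chromatin regulators, had the highest median fold of the 8 genes in every list. Its span (chromosome 22, 30969265 to 30979395, plus strand) held 5 and 6 peaks in control and 6 and 7 in knockdown. Median folds were 6.99 and 6.49 in control and 8.18 and 6.23 in knockdown, which put the median TUG1 peak at percentile 92.6, 91.6, 94.1 and 85.4 of its list. Peaks covered 48.7% and 57.7% of the span in control and 64.8% and 65.7% in knockdown. The covered share did not overlap between groups, while the number of peaks did. It also kept the groups apart in NEAT1, NORAD, OIP5-AS1 and CYTOR, higher in knockdown, and in MALAT1, lower in knockdown. In KCNQ1OT1 and MIR100HG it overlapped. How many of all genes separate by covered share was not counted, so this is not a result about TUG1.

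Near the TUG1 start, the first of 3 equal parts of the span held 1 peak in control replicate 1 and 3 peaks in each of the other 3 lists. The locus at 30969272 to 30969916 had folds of 6.41 and 6.23 in knockdown and 3.22 in control replicate 2, and was missing from control replicate 1. A knockdown-only locus at 30970038 to 30970472 had 3.60 and 3.29. The adjoining locus, 30970610 to 30972360, had 6.99 and 6.99 in control and 11.9 and 9.93 in knockdown. Farther along, the fold percentiles of the groups overlapped at each of the 3 shared loci. At 30975152 to 30975990, the highest mean percentile of the gene, folds were 7.10 and 10.1 in control and 9.34 and 8.42 in knockdown, with summits within 1 bp. Folds were 4.29 and 5.99, and 7.02 and 6.69, at 30972779 to 30973563. They were 7.88 and 7.72, and 9.43 and 5.31, at 30976094 to 30979168, where 2 lists had 1 peak and the other 2 lists had 2.

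NORAD, known for sequestering RNA-binding proteins in the cytoplasm, had the same 2 loci in every list. Its span is short (chromosome 20, 36045618 to 36050960, minus strand). The locus at the start (36049400 to 36050970) was 1037 and 1037 bp wide in control and 1571 and 1300 bp in knockdown. Its folds were 4.71 and 4.23 in control and 3.87 and 4.15 in knockdown, so the peak was wider but not higher in knockdown. At the second locus (36048468 to 36048869) the summit was at the same base in all 4 lists, with folds of 1.87 and 1.99 in control and 2.55 and 2.32 in knockdown. No peak lay in the part of NORAD beyond 2.24 kb by its summit.

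OIP5-AS1, a conserved lncRNA known as a decoy for the RNA-binding protein ELAVL1 and for microRNAs, had higher folds in knockdown at each of its shared loci. Its span (chromosome 15, 41282697 to 41313338, plus strand) held 3 peaks in each control list, and 4 and 3 in knockdown. At 41297992 to 41298596 folds were 2.73 and 3.36 in control and 6.83 and 6.81 in knockdown. At 41285091 to 41285346 they were 3.55 and 2.48, and 4.13 and 4.13. At 41299286 to 41299679 they were 3.86 and 3.31, and 4.06 and 5.82. The median OIP5-AS1 peak was at percentile 41.3 and 39.3 in control and 66.1 and 81.7 in knockdown (exact two-sided permutation p = 0.333). The remaining locus, 41285904 to 41286090, was in knockdown replicate 1 only, with a fold of 5.36.

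MIR100HG, the longest of the genes, had sparse and weak peaks. Its span (chromosome 11, 122028329 to 122422871, minus strand) held 13 and 10 peaks in control and 15 and 11 in knockdown, covering 0.850% to 1.20% of its length. All lay more than 219 kb from the outermost of its 6 RefSeq starts, at 122422871, and none was in the first of 3 equal parts. Start windows farther along were reached by peaks. This was so at the start 122105616 in 3 lists, at 122100846 in 2 lists and at 122102229 in 1 list. Median folds were 1.964 and 2.003 in control and 2.36 and 2.44 in knockdown.

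Of 20 MIR100HG loci, 4 were in all 4 lists. The strongest by mean fold percentile (122090898 to 122091833) had folds of 1.96 and 1.96 in control, where it was 1 peak, and up to 7.87 and 5.77 in knockdown, where it was 2 peaks. The control summits lay in the weaker knockdown peak, so these folds belong to different bases. Control-only loci were weak, with folds of 1.40 and 1.54 at 122097664 to 122097902, 1.68 and 1.40 at 122132414 to 122132620, and 2.24 and 2.23 at 122184218 to 122184698. The 2 knockdown-only loci had 3.35 and 3.09 at 122115471 to 122115748, and 1.79 and 1.69 at 122115900 to 122116425. Both overlap the span of BLID.

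**Figure D5:**
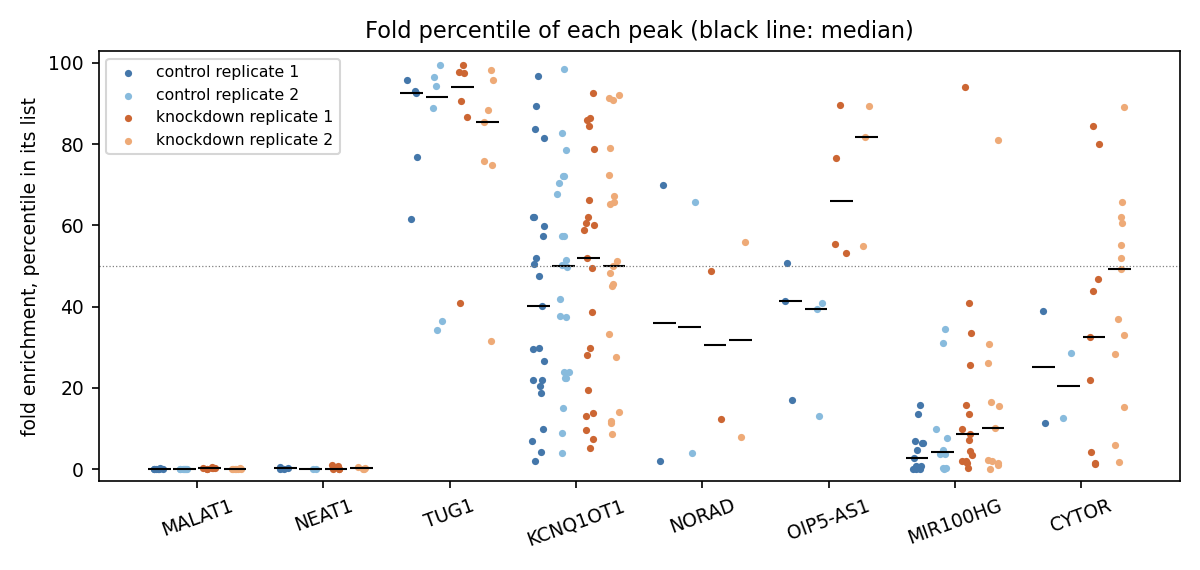
Percentile of the fold enrichment of every peak within its own list (vertical axis, 0 to 100), by gene and library, with a black line at the median. MALAT1 and NEAT1 peaks lie at the bottom of each list, TUG1 medians lie between 85.4 and 94.1, and the OIP5-AS1 medians are higher in both knockdown lists.

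Over all 31 loci in all 4 lists, the fold percentile was higher in both knockdown lists than in either control list at 17 (54.8%). It was lower in both at 4 (12.9%), and the groups overlapped at 10. In the whole lists 25.3% of such loci were higher and 28% lower. Where a list had several peaks at a locus its highest fold was used. At the strongest MIR100HG locus, counted as higher, this compares different bases. There the knockdown peaks that hold the control summits were at percentiles 4.39 and 1.56, against 2.85 and 3.74 in control, so the groups overlapped. Summits of the compared peaks also lay up to 2047 bp apart at the TUG1 locus 30976094 to 30979168 and up to 406 bp apart at the NORAD start locus. Among the 23 loci with 1 peak in every list, 10 (43.5%) were higher and 4 (17.4%) lower, against 24.5% and 28.2% of 19606 such loci in the whole lists. None of these 10 was in TUG1, KCNQ1OT1 or MIR100HG. The 17 higher loci were spread over all 8 genes, with 3 each in MALAT1, KCNQ1OT1 and OIP5-AS1, 2 each in NEAT1, MIR100HG and CYTOR, and 1 each in TUG1 and NORAD. The lower loci were 3 of KCNQ1OT1 and 1 of NORAD. In MALAT1 and NEAT1 these differences lay within the lowest 1.05% of folds. The members and this measure were chosen with results of these lists known, so the counts are descriptive.

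The median fold percentile over all member peaks was 15.8 and 26.3 in control and 25.7 and 33.2 in knockdown. The groups overlapped (exact two-sided permutation p = 0.667). Where each list had 1 peak at a shared locus, the summits of the 4 lists lay within 10 bp at 9 of 23 member loci (39.1%), against 32.9% of 19606 loci in the whole lists. The median summit range went the other way, at 33 bp for the member loci and 25 bp in the whole lists.

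Other lncRNA genes were taken from a list of 39 symbols found in the gene table, of which 22 had a peak. More peaks in both knockdown lists were found in 4 and fewer in 5, against 18.1% and 23.3% of all genes with a peak. Their 152 loci included 47 in all 4 lists (30.9%), against 35.7% of all loci. Control-only were 15 of 70 (21.4%), and knockdown-only 19 of 75 (25.3%), of which MIR4435-2HG held 11. LINC00963, named after its values were seen, had 10 and 10 peaks in control and 4 and 2 in knockdown, with 6 control-only loci. Over all 2384 RefSeq lncRNA genes with a peak, 23.2% of loci were control-only and 19.4% knockdown-only.

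Genes of proteins known to bind these RNAs all had peaks, 24 of 24. The share of comparable protein-coding genes with a peak was not computed, so this count is not a result about these genes. Fewer peaks in both knockdown lists were found in 9 and more in 3, against 23.3% and 18.1% of all genes with a peak. Control-only loci were 21 of 100 (21%) and knockdown-only loci 7 of 71 (9.86%), against 22.6% and 18.9% in the whole lists. Examples, chosen after their values were seen, are ELAVL1, with 2 and 3 peaks in control and 6 and 8 in knockdown, and YTHDC1, the nuclear m6A reader gene, with 9 and 10 in control and 6 and 7 in knockdown. The groups did not overlap in either gene, in opposite directions.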

How the data were processed

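Per the labels' protocols, a methylated spike-in was added to the RNA before fragmentation, and stranded libraries followed immunoprecipitation. MACS2 2.2.7.1, HISAT2 2.1.0, Bowtie2 2.4.2, SAMtools, Trim Galore 0.6.6 and hg38 are named, without roles, per the submitters' processing notes. The use of spike-in and input in calling peaks was not given in the sources used here. Each library had its peaks called strand by strand, as the names of the deposited peaks show. Fold enrichment is a deposited ratio, and p-value and q-value were deposited as −log10 values. The score column of the deposited lists, a rounded multiple of −log10 q, was left out.

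Gene spans and sequences came from RefSeq tables (GRCh38.p14). Start windows existed for 6 of the 8 genes, and the strand of NEAT1 and KCNQ1OT1 rests on their peaks. Folds were compared as percentiles within a list. Library values were compared by exact two-sided permutation tests of 2 against 2. Locus merging was tested on simulated data (Python 3.11.15, pandas 2.3.3). The alternatives were cuts on fold and −log10 q, lists of equal length, other placement, strand and overlap rules, leaving out each library or certain genes, pairing lists by replicate number, and loci with 1 peak in every list.

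All 8 genes are named. Loci named are every control-only and knockdown-only locus, the locus of highest mean fold percentile per gene, and further loci of genes with 6 or fewer. Members and lists were chosen with earlier results of these data known, and loci beyond this rule were named after their values were seen. Values of some genes of the comparison lists are not reported here.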

Additional observations from a re-analysis of the deposited data

How the results depend on the processing

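The numbers of member loci depended most on peak strength. With a fold of at least 4, 5 loci were in all 4 lists, 1 was control-only and 10 were knockdown-only, and with a −log10 q of at least 20 the counts were 14 in all 4 lists, 2 control-only and 9 knockdown-only. Lists of equal length, a setting that removes more peaks from the longer control lists, left 7 control-only and 17 knockdown-only loci. Shares over all loci were not computed under these 3 settings, so the counts are not a result about the member genes. Leaving out 1 library at a time gave 17 to 23 knockdown-only loci, and leaving out a library loosens what a class requires. Chosen after seeing the data, leaving out CYTOR gave 8 knockdown-only loci and leaving out KCNQ1OT1 gave 3 control-only loci. The cause of the other shifts was not tested. The differences in peak number, covered length and fold percentile over the 8 genes kept their direction in every alternative run (2 to 19 peaks, 2.43 to 9.99 kb and 0.313 to 17.7 percentile points more in knockdown), none with an exact p that could reach a threshold. With the replicate number as a block (replicate block, added after seeing the data), the paired differences were 10 and 12 peaks, 7.5 and 5.04 kb, and 9.95 and 6.90 percentile points, with means of 11, 6.27 and 8.42. An exact sign-flip test gave p = 0.5 for each, and 2 pairs can give no smaller value. The labels do not say that a number marks a shared culture. Read depth is unknown, so a missing peak does not show a missing mark.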

Other observations

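Several member genes also carried peaks on the opposite strand. Each control list had 6 such peaks and each knockdown list had 10, in MALAT1, NEAT1, TUG1, NORAD and MIR100HG. Of these 32 peaks, 25 overlapped a peak of the member gene in the same list. Opposite-strand peaks were not counted over all genes of the lists, so these counts are not a result about the member genes. In MALAT1, where the gene TALAM1 (65499312 to 65507432 on chromosome 11) is annotated as antisense RNA, the minus-strand locus at the internal start had folds of 2.02 and 2.12 in control and 2.48 and 2.65 in knockdown. These folds were higher than those of the plus-strand peaks over the same bases in each list.

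In NEAT1 the opposite-strand peak lay over the second shared locus and had folds of 2.64 and 1.66 in control and 3.77 and 4.01 in knockdown. NORAD had 1 opposite-strand peak in control replicate 1, none in control replicate 2 and 2 in each knockdown list, with folds of 3.88 to 5.19 in knockdown. TUG1 had 2 and 1 in control and 3 and 3 in knockdown. The strongest opposite-strand locus, within MIR100HG and apart from its peaks, had folds of 6.40 and 6.27 in control and 8.90 and 7.41 in knockdown (122180201 to 122180470 in knockdown replicate 1).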
